A study of Homo sapiens with 14 samples.

Results

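The genes described here are 50 genes of DNA replication and S phase, taken by symbol from a list that runs from origin licensing to the enzymes of nucleotide supply and the E2F factors. All 50 were found among the 35075 symbols of the deposited tables, and they carry 51 Ensembl IDs because POLA2 has 2. The study treated 2 human cancer lines with ursolic acid (UA), a triterpenoid found in fruit peel, or with digoxin, a cardiac glycoside that blocks the sodium pump, and read total RNA by RNA-seq. Values are FPKM, that is, fragments scaled to the length of the gene and the depth of the library. C4-2B, a prostate cancer line derived from LNCaP, received 10 µM UA or 100 nM digoxin for 24 or 48 h, each beside its own vehicle at that time, or 8 libraries in 2 series. HCC70, a triple-negative breast cancer line, was given vehicle or UA at 5 or 10 µM for the same times, or 6 libraries. All samples are labelled wild type and no other agent is given. There is 1 library for each condition, so the values below carry neither error nor test, and higher or lower only means above or below the vehicle library.

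DNA replication begins at origins, where the origin recognition complex with CDC6 and CDT1 loads the MCM helicase onto chromatin, a step called licensing. At the start of S phase the kinase made of CDC7 and DBF4, together with CDC45, the GINS complex and MCM10, turns the loaded helicase on, and primase, the polymerases alpha, delta and epsilon, the clamp PCNA and its loader then copy both strands. Most of these genes are transcribed in pulses by E2F factors as cells pass from G1 into S phase, so their RNA level in a culture is widely used as a sign of how many cells are cycling.

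The letters before the transcription start were read for 4 genes that mark the range of the results: MCM10 and RFC3, which were among the lowest after 10 µM UA in HCC70 cells, MCM6, which lay near the middle, and E2F1, which was closest to its vehicle. Each line gives the 200 bases upstream of the annotated start, 5′ to 3′ on the gene's strand, from RefSeq on GRCh38.p14. Capitals mark E2F words (TTTCCCGC, TTTGGCGC, TTTCGCGC, TTTGCCGC) and the CCAAT word, on either strand, where words may overlap or touch. MCM10 (chr10:13161358-13161557, plus strand) holds 2 CCAAT words and 0 E2F words. RFC3 (chr13:33817949-33818148, plus strand) holds 1 E2F word. MCM6 (chr2:135876444-135876643, minus strand) holds 4 E2F words and 2 CCAAT words, and E2F1 (chr20:33686386-33686585, minus strand) holds 2 and 3.
MCM10: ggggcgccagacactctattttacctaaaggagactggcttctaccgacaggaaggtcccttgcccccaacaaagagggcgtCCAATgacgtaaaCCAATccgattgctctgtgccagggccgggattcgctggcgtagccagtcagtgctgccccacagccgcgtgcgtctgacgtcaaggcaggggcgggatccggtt
RFC3: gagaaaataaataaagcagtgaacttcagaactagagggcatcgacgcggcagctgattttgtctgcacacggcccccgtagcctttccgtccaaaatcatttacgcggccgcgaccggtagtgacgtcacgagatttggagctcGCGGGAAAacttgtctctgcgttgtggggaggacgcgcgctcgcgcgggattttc
MCM6: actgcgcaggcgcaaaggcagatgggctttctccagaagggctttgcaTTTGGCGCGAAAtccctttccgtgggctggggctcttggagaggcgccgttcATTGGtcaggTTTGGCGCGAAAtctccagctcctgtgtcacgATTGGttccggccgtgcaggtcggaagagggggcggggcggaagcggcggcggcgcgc
E2F1: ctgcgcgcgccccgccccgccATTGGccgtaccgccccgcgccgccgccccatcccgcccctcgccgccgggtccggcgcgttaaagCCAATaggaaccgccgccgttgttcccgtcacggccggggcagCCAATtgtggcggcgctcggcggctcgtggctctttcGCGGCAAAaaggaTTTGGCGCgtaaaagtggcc

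The table of promoters, which spans 250 bases before to 50 after each start, held 42 of the 50 genes. An E2F word was present in a promoter of 23 of the 42 genes (54.8%) and in 3.99% of all 27305 genes in the table, which is a description of sequence and not of binding. CCAAT was present in 61.9% of the 42 genes against 39.7% of all, and the words TTTGAA and TTTAAA, which occur in the CHR elements of late cell cycle genes, in 14.3% against 27.9%. After 10 µM UA for 48 h in HCC70 cells the 23 genes with an E2F word had a median log2 ratio of −1.15 and the 19 without one −1.02, over ranges of −2.16 to −0.24 and −3.00 to −0.59 that overlapped. MCM10, without a word, was lower than any gene with one. RPA3, POLD3, MCM4, GINS4, MCM5, RPA2, CCNE2 and E2F8 had no entry.

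The libraries matched their line labels by most markers. KLK2, KLK3 and HOXB13 lay between 93.8 and 1971 FPKM in C4-2B and at or below 0.63 in HCC70, KRT5, KRT6B and KRT17 were at or above 296 FPKM in every HCC70 library, and ESR1 and PGR stayed at or below 0.71 there. ELF5 went against its place on the list of breast markers, with 8.10 to 17.6 FPKM in C4-2B and at most 0.13 in HCC70, and TMPRSS2 and EGFR were expressed in both lines. In 1 library, C4-2B with UA at 48 h, KRT5, KRT6B and KRT17 summed to 7.30 FPKM (0.22% of the mean of the HCC70 vehicles) against 0 to 0.63 in the other C4-2B libraries. LCN2 was at 9835 FPKM or more in HCC70, with 38166 FPKM at 10 µM for 48 h against 11088 FPKM in the vehicle of that time. In C4-2B with UA it was 152.7 FPKM at 48 h and 92.9 FPKM at 24 h. It was 62.2 and 45.8 FPKM in the UA-series vehicles and 0.49 to 2.80 FPKM in the digoxin series. The part of these markers in the results below was not tested. The read depth is unknown, and in each library 11210 to 12163 genes exceeded 1 FPKM.

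All 50 genes exceeded 1 FPKM in every vehicle library, the lowest value being 1.71 FPKM for GINS4 in the HCC70 vehicle at 48 h. In the 4 C4-2B vehicles POLD2, a subunit of polymerase delta, had the highest mean level with 275 FPKM (260 to 287), followed by MCM7 with 168 FPKM and PCNA with 152 FPKM. In the 2 HCC70 vehicles POLD2 was again first with 188 FPKM (151 to 225), followed by MCM5 and MCM4, whose ranges of 80.0 to 102 and 79.3 to 101 FPKM overlapped almost wholly. The lowest were GINS4, GINS1, POLA1 and CDC25A in HCC70, with means of 2.13 to 3.54 FPKM, where counting error weighs most. The vehicle libraries of the 2 times also lay apart, where time and library cannot be told apart. The vehicle at 48 h was below the vehicle at 24 h for 41 of 50 genes in the UA series of C4-2B, 43 in the digoxin series and 45 in HCC70, where 54.8%, 34.1% and 61.7% of all genes tested were lower. The medians of these log2 ratios were −0.15, −0.32 and −0.35. RRM2, the regulated subunit of ribonucleotide reductase, differed most in HCC70 and went from 103.5 FPKM at 24 h to 52.2 FPKM at 48 h in vehicle. These shifts without treatment set the scale for the small differences described below. The 2 C4-2B vehicles of the same time also lay apart (digoxin series over UA series). The median log2 ratio over the 50 genes was 0.27 at 24 h and 0.02 at 48 h, against 0.03 and 0.19 over all genes. At 48 h single genes ranged from −1.08 (CDT1) to 2.14 (RPA3, 76.6 against 17.3 FPKM). E2F2 and UHRF1 at 48 h were 2.67 and 8.53 FPKM in the digoxin series against 5.55 and 16.0 FPKM in the UA series.

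To compare each treatment with its vehicle, the log2 ratio was taken after adding 0.1 FPKM to both values. All 50 genes passed the filter of 1 FPKM in every comparison. In HCC70 cells 10 µM UA for 48 h gave the lowest values, with all 50 genes below the vehicle (61.6% of all 11858 genes tested), 42 lower by at least 1.5-fold (28.1% of all) and 29 lower by at least 2-fold (13.3% of all). The median log2 ratio was −1.04 over the 50 genes, with quartiles of −1.499 and −0.75, and −0.20 over all genes. In bulk RNA, fewer cells in S phase and less RNA per cell cannot be told apart. The 10 µM library at 48 h was the lowest of the 6 HCC70 libraries for 47 of the 50 genes, as it was for 46.9% of all genes.

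**Figure D1:**
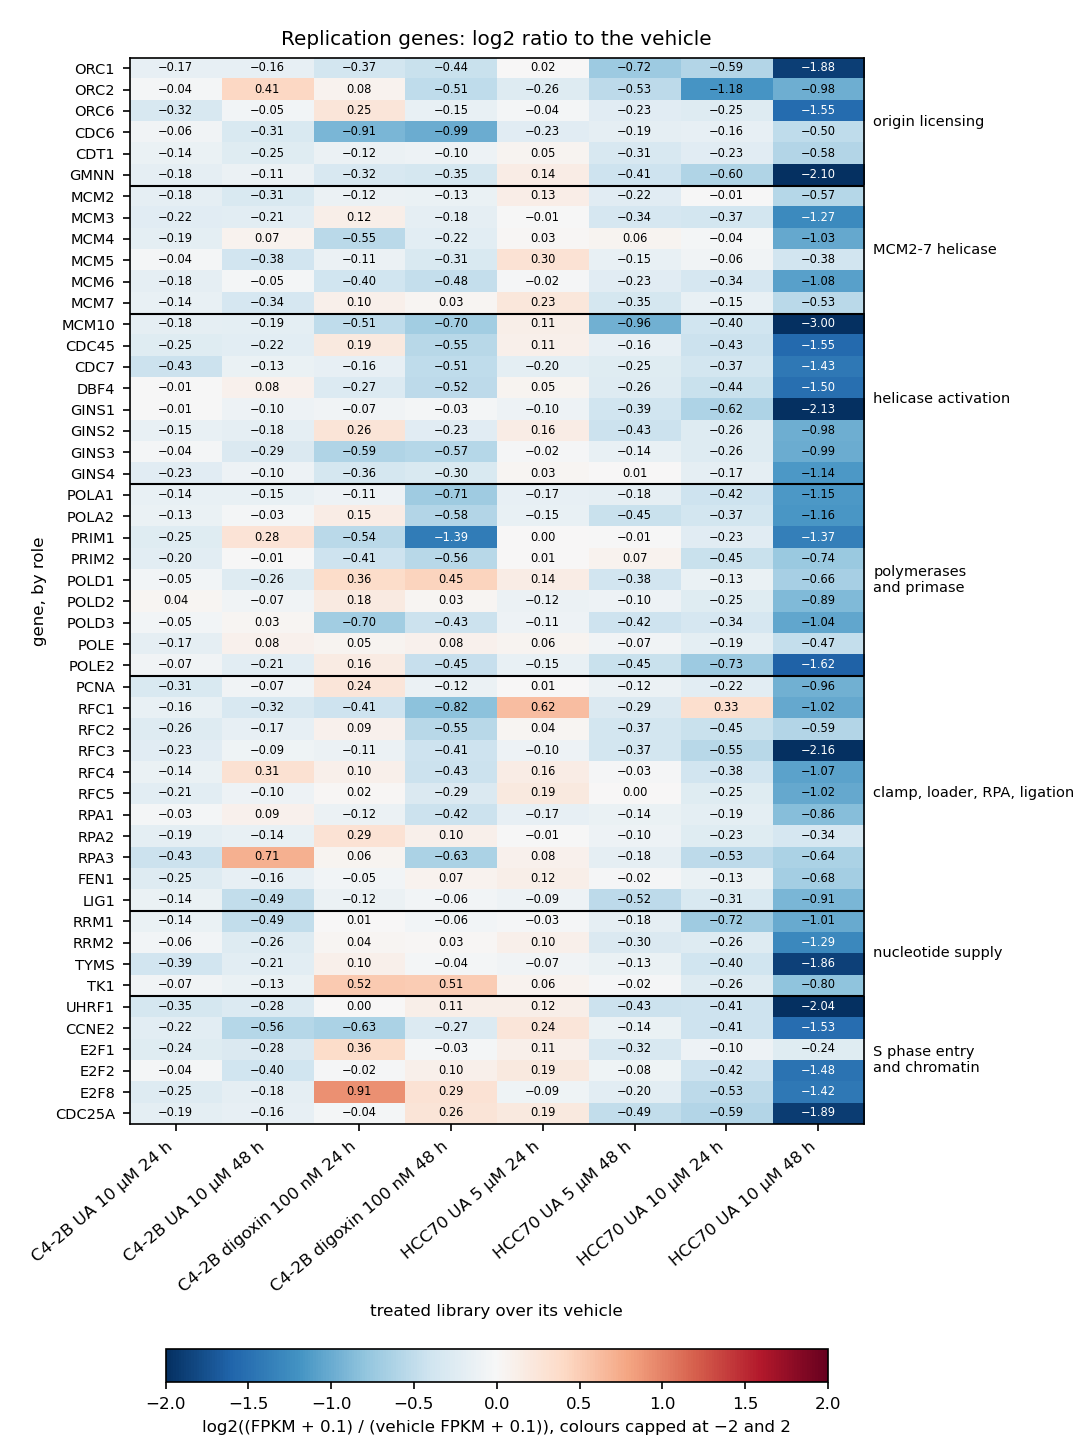
Log2 ratio of each of the 50 replication genes (rows, grouped by role) in each of the 8 comparisons of a treated library with its vehicle (columns), 1 library per condition. The column of 10 µM UA at 48 h in HCC70 is lower for all 50 genes, from −3.00 for MCM10 to −0.24 for E2F1, while no gene in the columns of UA in C4-2B was lower by 1.5-fold.

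Among the licensing factors the ratios were uneven. GMNN encodes geminin, which binds CDT1 and blocks relicensing in S and G2 phase, and its level in HCC70 was 42.8, 47.2 and 28.2 FPKM at 24 h with vehicle, 5 µM and 10 µM, and 38.1, 28.7 and 8.83 FPKM at 48 h. With 0.1 FPKM added to both values, it was thus 4.28-fold lower with 10 µM at 48 h (log2 ratio −2.10). CDT1, its binding partner, went from 30.04 FPKM in vehicle to 24.2 and 20.1 FPKM at 48 h, a log2 ratio of −0.58 at 10 µM. The quotient of CDT1 over GMNN was accordingly 0.79 in vehicle and 2.27 with 10 µM at 48 h, the highest of all 14 libraries. This quotient also differed without treatment, with 1.33 in the HCC70 vehicle at 24 h and 0.37 to 1.63 over the C4-2B vehicles. ORC1, the ATPase subunit of the origin recognition complex whose level varies most over the cell cycle, had a log2 ratio of −1.88 (6.57 to 1.71 FPKM), and ORC6 of −1.55. CDC6, the helicase loader, was nearest to its vehicle in the group with 34.99, 30.8 and 24.7 FPKM at 48 h (log2 ratio −0.50). ORC2 departed from the other genes in time. It was 4.51 FPKM in vehicle and 1.93 FPKM with 10 µM at 24 h, and 5.44 and 2.71 FPKM at 48 h. Its log2 ratio was thus −1.18 at 24 h and −0.98 at 48 h. It was the only gene of the 50 lower by at least 2-fold at 24 h (1.73% of all genes). ORC2 shares exonic bases with a noncoding gene on the opposite strand.

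The 6 subunits of the MCM2-7 ring, which act as a single hexamer, fell into 2 sets of values in the 10 µM library at 48 h. MCM3, MCM6 and MCM4 had log2 ratios of −1.27, −1.08 and −1.03, and MCM5, MCM7 and MCM2 of −0.38, −0.53 and −0.57. MCM3 was 50.5, 50.1 and 39.2 FPKM at 24 h with vehicle, 5 µM and 10 µM, and 42.3, 33.3 and 17.5 FPKM at 48 h. MCM5 over the same libraries was 102, 125 and 97.2 FPKM, and then 80.0, 72.3 and 61.7 FPKM. MCM5 over MCM3 was between 1.89 and 2.49 in the other 5 HCC70 libraries and 3.53 in this one. MCM4 was close to its vehicle at 5 µM (log2 ratio 0.06 at 48 h) and at 10 µM for 24 h (−0.04), in contrast to 10 µM for 48 h, with 79.3 FPKM in vehicle and 38.8 FPKM after UA.

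The factors that activate the helicase formed 1 of the 2 role groups with the lowest medians, −1.47 over 8 genes. All 8 were lower by at least 1.5-fold (28.1% of all genes) and 6 by at least 2-fold (13.3%). MCM10, which binds the active helicase and polymerase alpha, gave the lowest ratio of all 50 genes. Its level at 24 h with vehicle, 5 µM and 10 µM was 13.2, 14.3 and 10.0 FPKM. At 48 h it was 14.4, 7.37 and 1.72 FPKM. With 0.1 FPKM added to both values, it was 7.98-fold lower at 10 µM for 48 h (log2 ratio −3.00). MCM10 was also the lowest gene at 5 µM for 48 h (log2 ratio −0.96). GINS1 was 2.49 FPKM in vehicle and 0.49 FPKM with 10 µM at 48 h (log2 ratio −2.13), while GINS2, GINS3 and GINS4, the other members of that tetramer, had log2 ratios of −0.98, −0.99 and −1.14. GINS1 shares exonic bases with NINL on the opposite strand, and whether counting used strand is not given. CDC45, DBF4 and CDC7 lay between −1.55 and −1.43.

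**Figure D2:**
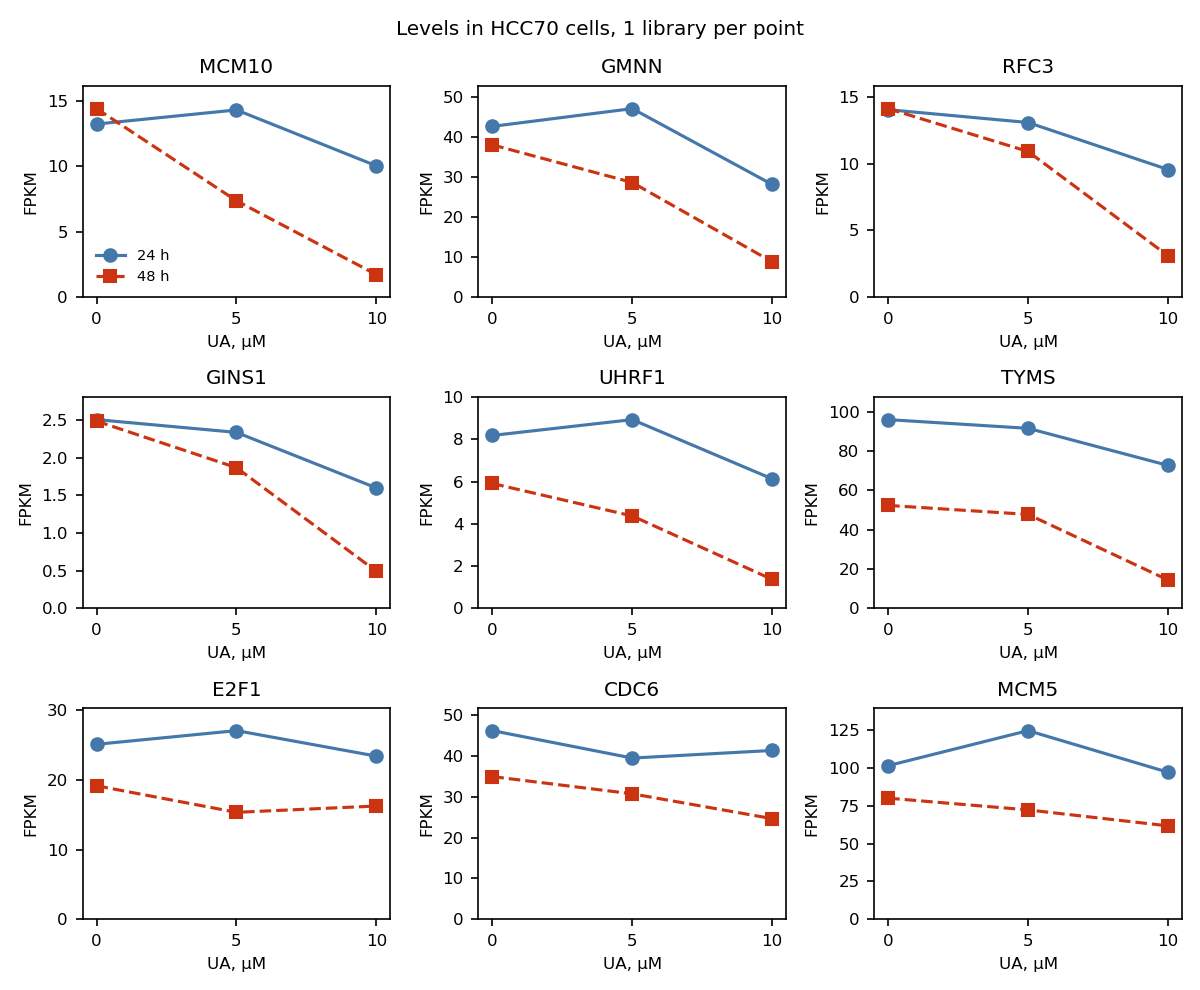
FPKM (vertical axis, from 0) of 9 replication genes in the 6 HCC70 libraries against the UA concentration in µM, with circles for 24 h and squares for 48 h and 1 library per point. MCM10, GMNN, RFC3, GINS1, UHRF1 and TYMS step down with concentration at 48 h to between 0.49 and 14.3 FPKM, whereas E2F1 at 48 h is 15.4 FPKM at 5 µM and 16.3 FPKM at 10 µM.

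The 9 polymerase and primase genes had a median log2 ratio of −1.04, and 8 were lower by at least 1.5-fold (28.1% of all genes). POLE2, an accessory subunit of polymerase epsilon, was 17.6, 15.9 and 10.6 FPKM at 24 h and 15.3, 11.1 and 4.91 FPKM at 48 h (log2 ratio −1.62), whereas POLE, the catalytic subunit of the same enzyme, was 8.43, 8.02 and 6.05 FPKM at 48 h (−0.47). PRIM1, the catalytic subunit of primase, had a log2 ratio of −1.37 and PRIM2, its partner, of −0.74. PRIM1 shares exonic bases with NACA on the same strand, and PRIM2 has near-identical copies in the genome, so both values are less certain. In polymerase delta POLD1 (−0.66) and POLD2 (−0.89) were closer to vehicle than POLD3 (−1.04), and in polymerase alpha POLA1 and POLA2 were at −1.15 and −1.16.

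Of the 11 genes of the clamp, its loader, single-strand binding and fragment joining, 10 were lower by at least 1.5-fold (28.1% of all genes). RFC3, a small subunit of the clamp loader, was 14.03, 13.1 and 9.55 FPKM at 24 h. At 48 h it was 14.1, 10.9 and 3.09 FPKM, or 4.46-fold lower at 10 µM with 0.1 FPKM added to both values. The other loader subunits RFC1, RFC4 and RFC5 had log2 ratios of −1.02 to −1.07 and RFC2 of −0.59. RFC1, the large subunit, was the only gene above its vehicle at 10 µM for 24 h, with 15.9, 24.4 and 20.0 FPKM, but it was also the gene that differed most upward between the untreated HCC70 vehicles, with 24.1 FPKM at 48 h. PCNA was 73.7, 67.6 and 37.7 FPKM at 48 h (−0.96). RPA2, which with RPA1 and RPA3 coats single-stranded DNA, was 19.4, 18.1 and 15.3 FPKM at 48 h (−0.34), and FEN1 and LIG1, which trim and join Okazaki fragments, had ratios of −0.68 and −0.91.

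All 4 genes of nucleotide supply were lower by at least 1.5-fold (28.1% of all genes). TYMS, thymidylate synthase, was 96.1, 91.6 and 72.7 FPKM at 24 h and 52.3, 47.8 and 14.3 FPKM at 48 h (log2 ratio −1.86), with the caveat that it shares exonic bases with ENOSF1 on the opposite strand. RRM2 and RRM1 had log2 ratios of −1.29 and −1.01, and TK1, thymidine kinase of the salvage route, of −0.80 (46.9 to 27.0 FPKM). The 6 genes of S phase entry and chromatin had a median of −1.51. UHRF1, which reads hemimethylated DNA behind the fork, was 5.91, 4.37 and 1.36 FPKM at 48 h (−2.04). CDC25A, the phosphatase that activates CDK2, had a log2 ratio of −1.89 (3.32 to 0.82 FPKM), and cyclin E2 (CCNE2) of −1.53. E2F2, an activator, and E2F8, a repressor of the same family, were at −1.48 and −1.42. E2F1 was the exception, with 25.1, 27.1 and 23.4 FPKM at 24 h and 19.2, 15.4 and 16.3 FPKM at 48 h (log2 ratio −0.24), and E2F1 over E2F8 was 2.61 in vehicle and 6.07 with 10 µM.

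Both concentrations of UA were compared with the same vehicle at each time, so their ratios share that library. At 24 h 5 µM left the genes around their vehicle, with 20 of 50 lower (38% of all genes), 0 lower by at least 1.5-fold (2.17%) or 2-fold (0.644%), and 1 higher by at least 1.5-fold (3.79%), namely RFC1. The median was 0.03, and 0.06 over all genes. At 48 h 5 µM gave 46 of 50 lower (58.8% of all genes) with a median of −0.23, against −0.05 over all genes. That median is smaller in size than the untreated shift from 24 to 48 h in HCC70 (−0.35). Only MCM10 (−0.96) and ORC1 (−0.72) were lower by at least 1.5-fold (4.82% of all genes) and 0 by at least 2-fold (1.23%). With 10 µM for 24 h 49 of 50 were lower (58.6% of all genes), with a median of −0.34 close in size to the untreated shift from 24 to 48 h. Of these, 7 were lower by at least 1.5-fold (7.05% of all genes), namely ORC2, POLE2, RRM1, GINS1, GMNN, ORC1 and CDC25A, and ORC2 alone by at least 2-fold (1.73%).

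Without the vehicle, 10 µM was below 5 µM for 49 of 50 genes at 24 h (66.8% of all genes; CDC6 was the exception) and for 49 at 48 h (58.8%; E2F1 was the exception). At 48 h this direct log2 ratio had a median of −0.85, and 21 genes were lower by at least 2-fold (9.08% of all genes). Levels were ordered vehicle above 5 µM above 10 µM for 45 of 50 genes at 48 h (39.2% of all genes) and for 19 at 24 h (21.9%). At 10 µM, 49 genes were lower at both times (45.9% of all genes). The ratios at 24 and 48 h, which share no library, ranked the genes alike in part (Pearson r = 0.44 and Spearman rho = 0.61 over 50 genes, as a description, since genes of 1 library are not independent). For 5 µM the values were 0.06 and 0.11.

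In C4-2B cells the same 10 µM of UA left the replication genes close to vehicle. At 24 h 49 of 50 genes were lower (52.4% of all genes), but none by 1.5-fold or more (3.36%) or 2-fold (1.04%), and the median was −0.18 against −0.01 over all genes. The lowest were RPA3 and CDC7, both at −0.43, and POLD2 alone was above its vehicle, with 287 FPKM in vehicle and 295 FPKM with UA. At 48 h 41 of 50 were lower (47.7% of all genes), with a median of −0.16 against 0.01, again none by 1.5-fold or more (3%) or by 2-fold (1.02%). The median is of the size of the untreated shift from 24 to 48 h in the same series (−0.15). CCNE2 was the lowest, with 15.6 FPKM in vehicle and 10.5 FPKM with UA (−0.56), and LIG1 and RRM1 followed at −0.49. In the other direction RPA3 was 17.3 FPKM in vehicle and 28.4 FPKM with UA (0.71), the only gene higher by at least 1.5-fold (4.92% of all genes), after 22.5 and 16.6 FPKM at 24 h. RPA3 shares exonic bases with UMAD1 on the opposite strand. Lower at both times were 40 genes (29.0% of all genes). The ratios at the 2 times had r = −0.15 and rho = −0.05 over the 50 genes.

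Set side by side at 10 µM, the log2 ratio was smaller in HCC70 than in C4-2B for 40 of 50 genes at 24 h (57.7% of all genes) and 48 of 50 at 48 h (63.5%). The exceptions at 48 h were E2F1 and MCM5, with log2 ratios of −0.28 and −0.38 in C4-2B and −0.24 and −0.38 in HCC70. Both were below the lower quartile of the 50 genes in C4-2B (−0.26) and above the upper quartile in HCC70 (−0.75). Each line and time has 1 library per arm, and the difference between lines was not tested.

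**Figure D3:**
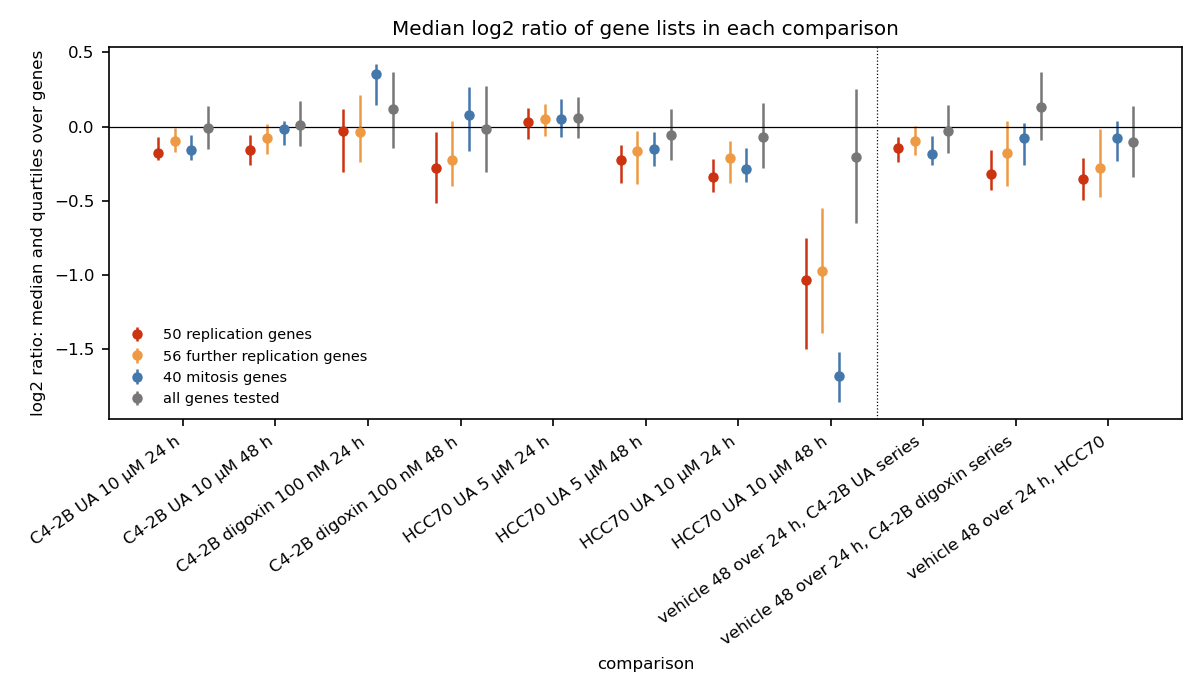
Median log2 ratio (points) with quartiles over genes (bars) of the 50 replication genes, 56 further replication genes, 40 mitosis genes and all genes tested, for the 8 treated libraries over their vehicles and, right of the dotted line, for the 3 vehicles at 48 h over 24 h. The bars show the spread among genes, not an error. With 10 µM UA at 48 h in HCC70 the medians are −1.04, −0.97, −1.68 and −0.20, and with digoxin at 24 h the mitosis genes lie at 0.35 and the replication genes at −0.03.

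With digoxin in C4-2B cells single genes of the set lay on either side of vehicle. At 24 h 26 of 50 were lower (37.9% of all genes), 4 by at least 1.5-fold (5.98%), 0 by 2-fold (1.87%), and 1 was higher by at least 1.5-fold (10.9%). The median was −0.03, against 0.12 over all genes. CDC6 had the lowest ratio, with 92.6 FPKM in vehicle and 49.3 FPKM with digoxin (−0.91), and it stayed low at 48 h with 75.6 and 38.1 FPKM (−0.99). POLD3, CCNE2 and GINS3 were the other 3, at −0.70, −0.63 and −0.59. E2F8 went the opposite way, with 12.8 FPKM in vehicle and 24.1 FPKM with digoxin at 24 h (0.91), and 8.52 and 10.4 FPKM at 48 h (0.29). E2F8 shares exonic bases with the antisense gene CSRP3-AS1.

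At 48 h of digoxin 38 of 50 genes were lower (51.4% of all genes), 6 by at least 1.5-fold (11.2%) and 1 by at least 2-fold (3.42%), with a median of −0.28 against −0.02 over all genes. This median is of the size of the untreated shift from 24 to 48 h in the same series (−0.32). The gene past 2-fold was PRIM1, with 45.1 FPKM in vehicle and 17.1 FPKM with digoxin (−1.39), after 39.8 and 27.3 FPKM at 24 h. The same gene was at 21.7 to 25.6 FPKM in the C4-2B vehicles of the UA series, so the 2 vehicles of the digoxin series are its highest values in C4-2B. RFC1, POLA1, MCM10 and RPA3 were the other genes beside CDC6, at −0.82, −0.71, −0.70 and −0.63. TK1 and POLD1 were above vehicle at both times. TK1 was 146 and 209 FPKM at 24 h and 119 and 169 FPKM at 48 h in vehicle and digoxin (0.52 and 0.51), and POLD1 was 32.1 and 41.3 FPKM, and then 23.5 and 32.0 FPKM (0.36 and 0.45). POLD1 was 37.4 and 39.9 FPKM in the vehicles of the UA series, near its levels with digoxin, whereas TK1 with digoxin exceeded all 4 vehicles at both times. By role, all 8 genes of helicase activation and all 6 of licensing were lower at 48 h (medians −0.51 and −0.39), whereas nucleotide supply stood at −0.01 and S phase entry at 0.10. The ratios at 24 and 48 h had r = 0.62 and rho = 0.51 over the 50 genes.

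**Figure D4:**
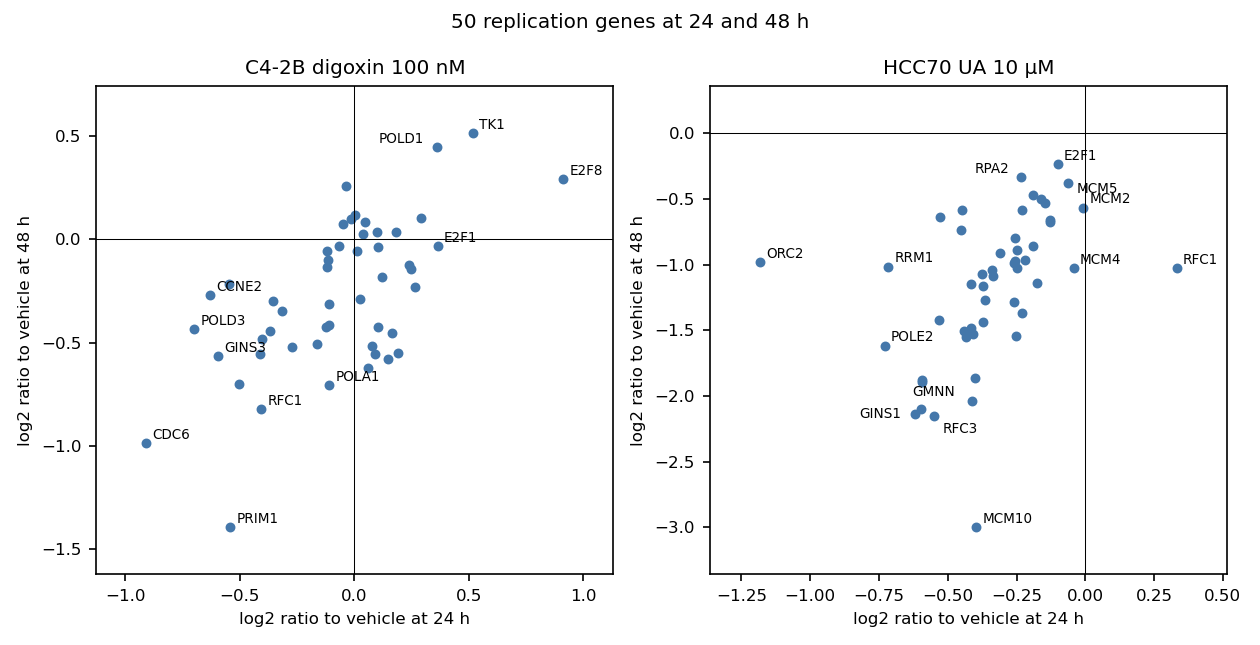
Log2 ratio to vehicle at 24 h (horizontal axis) and 48 h (vertical axis) of the 50 replication genes for digoxin in C4-2B (left) and 10 µM UA in HCC70 (right), with 1 point per gene and the genes farthest out named. On the left TK1, POLD1 and E2F8 lie above 0 at both times and CDC6 and PRIM1 lie lowest, and on the right all points lie below 0 on the vertical axis, with MCM10 at −3.00.

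**Figure D5:**
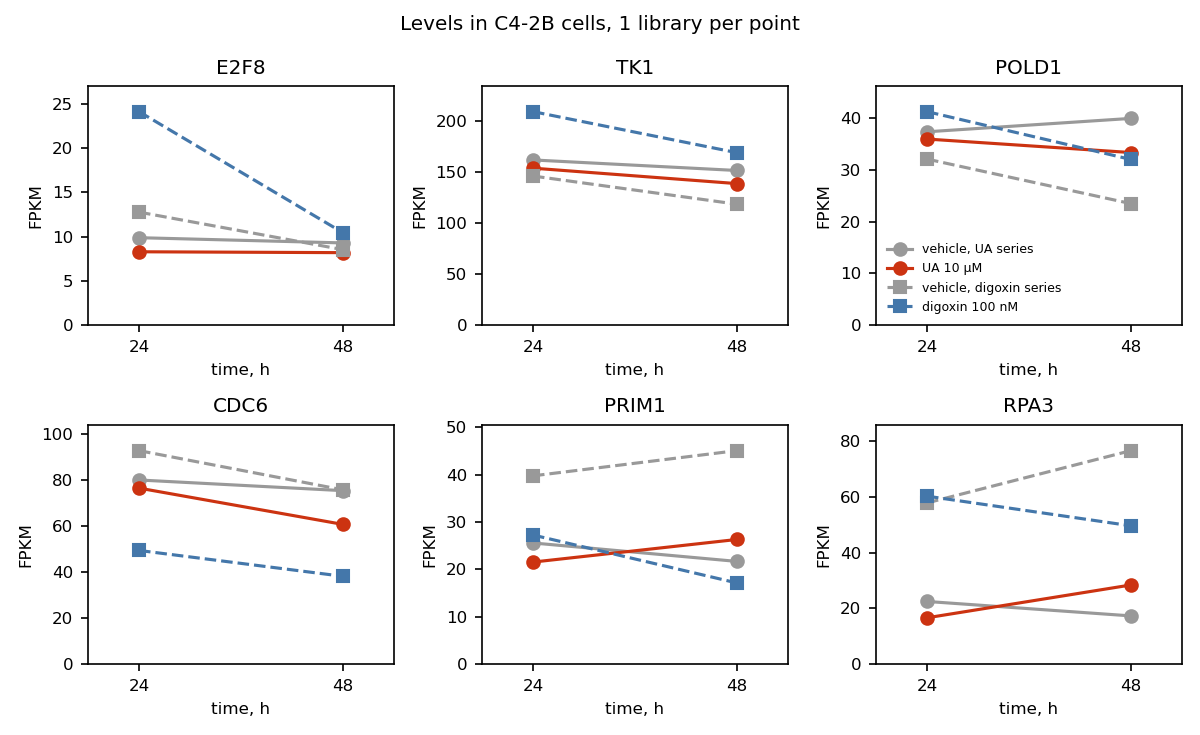
FPKM (vertical axis, from 0) of 6 replication genes in the 8 C4-2B libraries at 24 and 48 h, with circles and solid lines for the UA series and squares and dashed lines for the digoxin series, 1 library per point. CDC6 with digoxin (49.3 and 38.1 FPKM) lies below every vehicle of both series, PRIM1 and RPA3 differ more between the 2 vehicles than between UA and its vehicle, and E2F8 with digoxin at 24 h (24.1 FPKM) is the highest of its 8 values.

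A further list of 56 replication genes that are not among the 50 (further MCM and ORC genes, fork protection, histone chaperones, other E2F and pocket protein genes) was read in the same way. With 10 µM UA for 48 h in HCC70 53 of the 56 were lower (61.6% of all genes) and 27 by at least 2-fold (13.3%), with a median of −0.97. The lowest were SAMHD1, a hydrolase of deoxynucleotides that restrains their pool, with 4.02 FPKM in vehicle and 0.60 FPKM with UA (−2.56), DSCC1 of an alternative clamp loader with 7.94 and 1.34 FPKM (−2.48), and ESCO2, a cohesin acetyltransferase, with 4.40 and 0.88 FPKM (−2.20). The 3 above vehicle were POLD4, the smallest subunit of polymerase delta, with 44.2 and 92.0 FPKM (1.06), E2F5 (0.28) and cyclin E1 (CCNE1, 0.23). POLD4 thus differed in direction from POLD1, POLD2 and POLD3 of the same enzyme, and cyclin E1 from cyclin E2. The difference of CCNE1 was small, with 11.63 FPKM in vehicle and 13.65 FPKM with UA. Its vehicle at 24 h was 19.6 FPKM, so the untreated libraries lay farther apart. In C4-2B with UA 44 of the 56 were lower at 24 h (52.4% of all genes) and 37 at 48 h (47.7%), with 0 lower by at least 2-fold at either time (1.04% and 1.02%). With digoxin 34 were lower at 24 h (37.9% of all genes) and 40 at 48 h (51.4%), with 1 lower by at least 2-fold at each time (1.87% and 3.42%). These were CCNE1 at 24 h (−1.04) and ORC3, an origin recognition subunit, at 48 h (−1.13), both named after their values were seen. ORC3 was 7.27 FPKM in vehicle and 3.27 FPKM with digoxin, against 4.01 and 3.60 FPKM in the UA-series vehicles. CCNE1 was 10.8 and 5.23 FPKM, against 10.1 and 9.12 FPKM.

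A list of 40 mitosis genes was read for comparison. With 10 µM UA for 48 h in HCC70 all 40 were lower (61.6% of all genes), 38 by at least 2-fold (13.3%), with a median of −1.68, below that of the replication genes. The lowest were KIF20A (−2.87), DLGAP5 and ANLN (both −2.27), and the highest BUB3 (−0.51), UBE2C (−0.84) and CDC25C (−1.09). With digoxin at 24 h 36 of the 40 mitosis genes were above vehicle (61.9% of all genes), with a median of 0.35, while the replication genes stood at −0.03 and all genes at 0.12. At 48 h of digoxin 22 of the 40 were above vehicle (48.4% of all genes), and the medians of the mitosis and replication genes were 0.08 and −0.28. The difference between the lists was not tested.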

How the data were processed

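Processed RNA-seq tables of 14 libraries were used. Per the methods and the processing notes, the authors aligned reads to hg38 and estimated FPKM in a workflow of BWA, Bowtie and Cufflinks, whose versions are not given in the sources used here. The deposited FPKM values have 2 decimals, and those of the digoxin series, which lack a named unit, were read as FPKM because the methods give that unit. Whole fragments were not recovered (at most 28.7% of low values lay within 0.1 of a whole number), so no counting error can be given.

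Values of IDs with the same symbol were summed. A gene entered a comparison above 1 FPKM in either library, and ratios are on the log2(FPKM + 0.1) scale, which understates changes of low genes. No test was made with 1 library per condition. Counts past 1.5- and 2-fold in the main setting are set beside the share of all genes tested. The genes, role groups and lists were chosen with earlier results of these data known. Any of the 50 genes could be named, with full values for the lowest and highest of each role group at 10 µM and 48 h in HCC70, genes past 2-fold in C4-2B and genes that went against their group, and of the other lists the 3 lowest and 3 highest. Exon overlaps follow GENCODE v44, and promoters the RefSeq table of GRCh38.p14. Alternatives were other pseudocounts, filters, centring, entries of a symbol, thresholds and vehicles, the mean, shorter promoter words and a shorter window. Python 3.11.15, numpy 2.4.6, pandas 2.3.3 and matplotlib 3.10.9 were used. Counting and medians were tested on simulated data. The values of 2 further line markers are not reported here. The number of value columns left unused was 0.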

Additional observations from a re-analysis of the deposited data

Results flagged for a closer look

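RPA3 differed between the lines in direction with 10 µM UA at 48 h. Its log2 ratio to vehicle was 0.71 in C4-2B (17.3 to 28.4 FPKM) and −0.64 in HCC70 (23.6 to 15.1 FPKM), each past 1.5-fold, and the difference was not tested, with 1 library in each arm. The exons of RPA3 share bases with UMAD1 on the opposite strand. In C4-2B at 24 h RPA3 was 22.5 FPKM in vehicle and 16.6 FPKM with UA (−0.43), the other direction. Its level in the C4-2B vehicles of the digoxin series was 57.8 and 76.6 FPKM, above all 4 libraries of the UA series. It was chosen by scanning the 50 genes for values past 1.5-fold in opposite directions between the lines at 10 µM UA or between the times of a treatment, and it was the only one.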

How the results depend on the processing

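Without replicates no library could be left out, and every ratio rests on 1 library against 1. No paired analysis was possible because no condition has a replicate. Of 162 alternative values, 131 stayed close to the main one (a median within 0.1 on the log2 scale, a count within 1.5 times, a share within its exact binomial interval), and 31 did not. The 131 include 16 values without a filter, which could not differ because every gene of the set passed the filter. They also include 16 values with the highest entry of a symbol, which could change only through POLA2, the only gene of the set with several Ensembl IDs. These values say little about stability. A median changed sign 5 times, of which 4 concern main medians under 0.1 in size. These were digoxin at 24 h (−0.027 in the main setting, 0.26 and 0.088 against the vehicles named below) and 5 µM at 24 h (0.03, and −0.029 and −0.026 when centred on the median of all genes and on the trimmed mean). The median of 10 µM UA at 24 h in HCC70 became 0.019 against the vehicle of the other time. That vehicle also gave medians of −0.036 and −0.28 for UA in C4-2B at 24 and 48 h, 0.26 and −0.58 for digoxin, 0.38 and −0.55 for 5 µM and −1.503 for 10 µM at 48 h, with 4 genes past 2-fold downward for digoxin and 6 for 5 µM at 48 h. Against the vehicle of the other series UA in C4-2B gave a median of −0.49 at 24 h, with 3 genes past 2-fold at 24 h and 1 at 48 h, and digoxin at 24 h gave 0.088 and 1 gene. The share of all genes past 2-fold was not computed for the alternatives in this section. Their counts therefore show only how far the main counts move and have no background beside them.

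Centring on the median of all genes gave −0.15 and 1 gene for digoxin at 24 h and −0.83 and 19 genes for 10 µM at 48 h in HCC70. Centring on the trimmed mean gave −0.16 and 1 gene, 2 genes for digoxin at 48 h, and −0.92 for 10 µM at 48 h. The mean in place of the median gave −1.16 there. ORC2 at 10 µM and 24 h was no longer past 2-fold with a pseudocount of 1 FPKM or a filter of 5 FPKM (0 genes each). A threshold of 1.5-fold counted 4 and 6 genes for digoxin, 2 for 5 µM at 48 h and 7 for 10 µM at 24 h. E2F words of 7 letters were found in 78.6% of the 42 genes and in 15.3% of all genes with a promoter entry. For words of 8 letters these shares were 54.8% and 3.99%. Leaving out the 23 genes whose exons overlap another gene, an alternative added after seeing the data, moved no median by 0.1. The causes of these shifts were not tested.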
